A study of Mus musculus with 6 samples.

Results

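Complexes III, IV and V carry out the last steps of mitochondrial respiration, and 47 nuclear genes for them were measured in cultured mouse microglia. The 47 genes were every protein-coding gene whose symbol starts with Uqcr, Cox or Atp5 and whose mean over the 6 libraries was at least 1 FPKM (fragments per kilobase of transcript scaled to the mapped fragments of the library, a level per transcript length). They were 47 of the 53 protein-coding genes with these prefixes and of the 11395 genes that reached the same mean level. Of these, 8 belonged to complex III (Uqcr genes), 12 were subunits of complex IV, 10 were Cox genes for assembly or supercomplex factors of complex IV, and 17 carried the Atp5 prefix of complex V.

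The RNA-seq series asked how neutrophils that lack the surface protein CD177 affect microglia after spinal cord injury (SCI). Microglia came from the brains of wild-type (WT) neonatal C57BL/6 mice and were shaken off mixed cultures on day 14. They were cultured directly with neutrophils that had been isolated with magnetic beads from spinal cord lesions of Cd177 WT or Cd177 knockout (KO) mice at 3 days post-injury (3 dpi), and were sorted after 24 h for RNA. There were 3 libraries of microglia with WT neutrophils and 3 with KO neutrophils, named WT and KO libraries here after the neutrophils, since the microglia themselves were WT in both groups. The labels do not say whether libraries of a group came from separate cultures or animals, so the p-values measure only the spread between these libraries, which may be technical.

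The step between low values put the depth at about 15820000 to 19530000 fragments per library, an estimate and not a deposited count. Cd177 was listed at 0.113 to 0.477 FPKM in the WT libraries and 0.0217 to 0.109 FPKM in the KO libraries, and since the knockout was in the neutrophils these values do not check the labels. Of 16 neutrophil markers, 7 were listed at 0 in every library, Ly6g, S100a9 and Mpo among them, and the 16 summed to 2.08 to 2.37 FPKM in the WT libraries and 1.02 to 1.38 FPKM in the KO libraries. Of 18 microglia and macrophage markers, 12 had a mean of at least 1 FPKM, and their sum was 1323 to 1371 FPKM with WT and 1483 to 1523 FPKM with KO neutrophils. The 12 went both ways, with 6 called higher and 3 lower by limma, from a log2 change of 1.154 for Trem2 to -1.34 for Adgre1, and the others called lower were Cx3cr1 (-0.81) and Fcer1g (-0.28). The microglial markers P2ry12, Tmem119, Aif1, C1qb and C1qc lay under 1 FPKM in every library and C1qa was listed at 0 throughout, so the label of primary microglia rests on markers shared with other macrophages, such as Cd68, Csf1r and Tyrobp. The 7 astrocyte markers summed to at most 0.0450 FPKM and the 7 oligodendrocyte markers to at most 0.379 FPKM in any library. In bulk libraries such as these, fewer cells of a type and less RNA per cell cannot be told apart.

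Complex III (cytochrome bc1) passes electrons from ubiquinol to cytochrome c, complex IV (cytochrome c oxidase) passes them on to oxygen, and both pump protons across the inner mitochondrial membrane. Complex V (ATP synthase) lets the protons flow back through a ring of c subunits, which turns a shaft inside the catalytic F1 head and drives the synthesis of ATP. Most subunits are encoded in the nucleus, whereas the cytochrome b, COX1, COX2, COX3, ATP6 and ATP8 proteins are encoded in mitochondrial DNA, and macrophages and microglia are known to shift between respiration and glycolysis with their state of activation.

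With KO neutrophils 24 of the 47 genes rose and 2 fell, and 21 did not pass the test. The test was limma on log2(FPKM + 1), with p adjusted by Benjamini-Hochberg over all 11395 genes and a call at an adjusted p under 0.05. Among all genes tested, 24.5% were called higher and 18.8% lower, against 51.1% and 4.3% of the 47. The median log2 change of the 47 genes was 0.16, beside 0.02 over all genes tested. The genes that rose most were Atp5k, Uqcrh, Cox6b1 and Cox7b, and 9 of the called genes rose by more than 1.5 times in mean FPKM, whereas the core subunits Uqcrc1, Uqcrc2 and Atp5b did not pass the test. Every KO library lay above every WT library for 28 of the 47 genes, where 31.3% of all genes tested did so, and below for 5, where 24.6% did so. The log2 changes and the calls are on the log2(FPKM + 1) scale, which understates the change of low genes. The fold changes and the overlaps between libraries use FPKM itself.

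**Figure D1:**
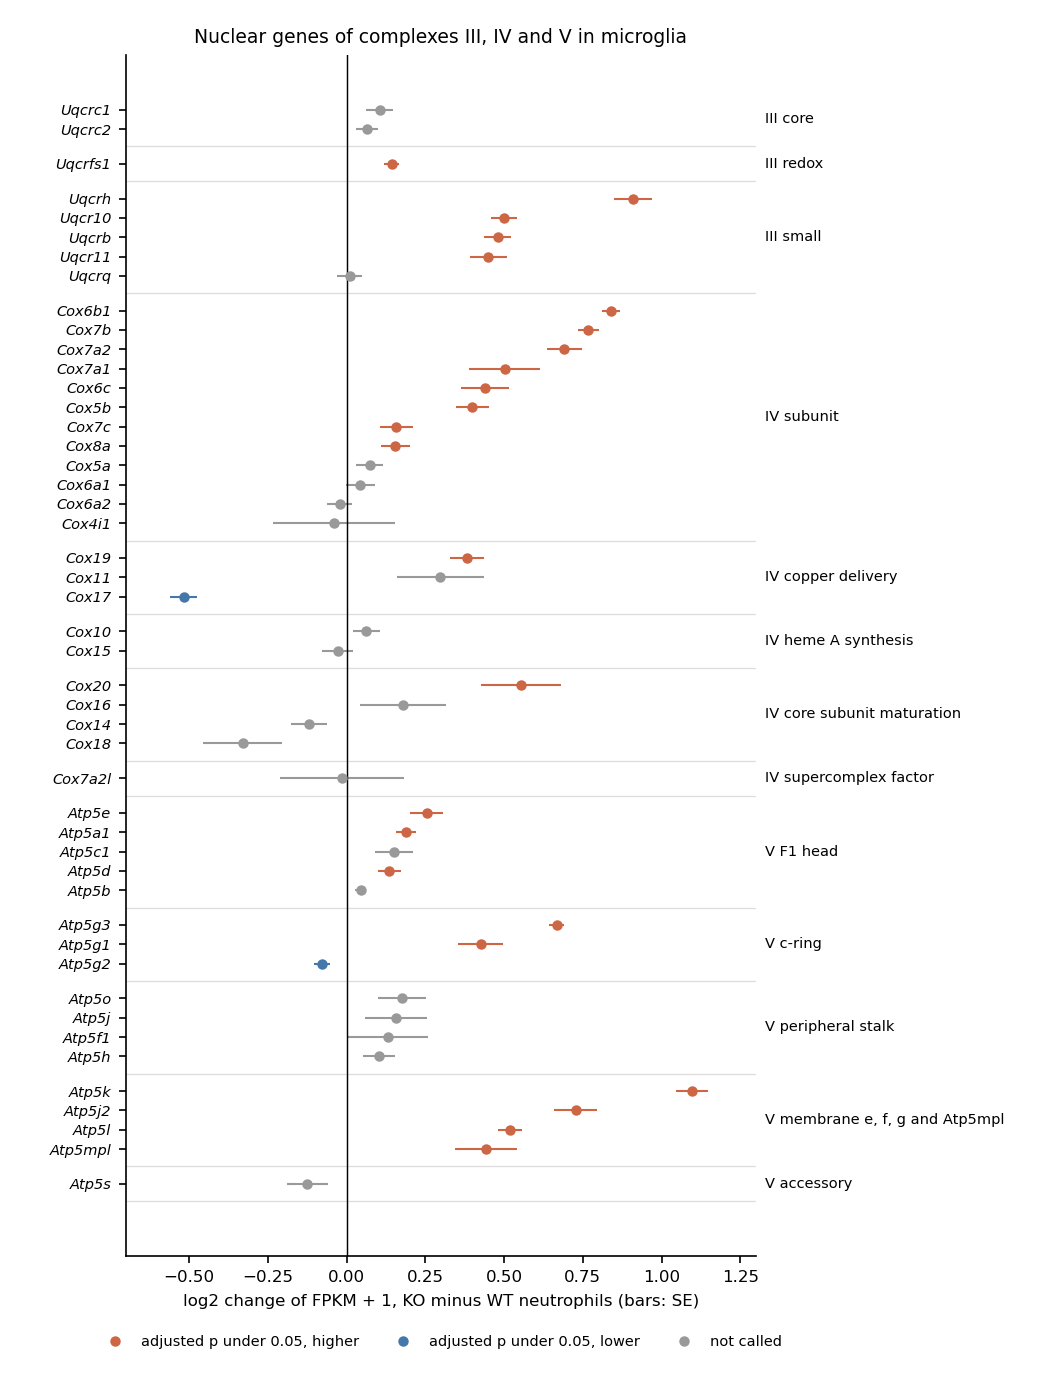
The log2 change of FPKM + 1 (x axis, KO minus WT neutrophils) of each of the 47 genes is plotted with its standard error, grouped by complex and by role. Red points are the 24 genes called higher, blue points the 2 called lower and grey points the 21 not called. Large rises stand among the small subunits of complex III, the complex IV subunits and the membrane subunits e, f and g of complex V.

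Other quantities moved with the neutrophil genotype. Mitochondrially encoded transcripts took 11.1 to 11.3% of the summed FPKM of the WT libraries and 14.3 to 14.6% of the KO libraries, and the summed FPKM was 314085 to 315632 in the WT libraries and 323588 to 326868 in the KO libraries. When each library was rescaled to the same sum (a TPM scale), 21 of the 47 genes were called higher and 2 lower, their median log2 change was 0.11, and the 3 genes that were no longer called were Atp5d, Cox7c and Cox8a. On that scale the calls over all genes turned from 2789 higher and 2141 lower to 2183 higher and 2659 lower. The part of the mitochondrial share, of the microglial markers and of the neutrophil markers in the changes below was not tested.

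The promoters of the gene with the largest rise in each complex, Atp5k for complex V, Uqcrh for complex III and Cox6b1 for complex IV, are shown with that of Atp5b, the gene with the highest level and little change, because respiratory genes are known for shared binding sites in their promoters. RefSeq promoters of GRCm38.p6, from 250 bases before to 50 bases after the start of transcription, were at hand for 37 of the 47 genes. Capitals mark the motifs CCGGAAG of ETS factors such as GABPA and GCGCATGCG of NRF1, on either strand, and the genomic windows are chr5:108434350-108434649 (minus strand) for Atp5k, chr4:116075021-116075320 (minus strand) for Uqcrh, chr7:30626065-30626364 (minus strand) for Cox6b1 and chr10:128083057-128083356 (plus strand) for Atp5b.
Atp5k: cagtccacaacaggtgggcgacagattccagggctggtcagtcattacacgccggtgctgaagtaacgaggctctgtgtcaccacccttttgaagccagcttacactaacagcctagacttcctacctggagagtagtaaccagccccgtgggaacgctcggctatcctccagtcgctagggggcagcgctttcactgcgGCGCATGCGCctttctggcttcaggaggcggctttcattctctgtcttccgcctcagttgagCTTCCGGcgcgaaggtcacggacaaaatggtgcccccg
Uqcrh: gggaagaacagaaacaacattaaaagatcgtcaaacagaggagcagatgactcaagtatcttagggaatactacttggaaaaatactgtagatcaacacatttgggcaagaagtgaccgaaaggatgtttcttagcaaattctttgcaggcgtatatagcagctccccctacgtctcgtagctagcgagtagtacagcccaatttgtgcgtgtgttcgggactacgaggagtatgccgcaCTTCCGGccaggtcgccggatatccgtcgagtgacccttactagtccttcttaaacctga
Cox6b1: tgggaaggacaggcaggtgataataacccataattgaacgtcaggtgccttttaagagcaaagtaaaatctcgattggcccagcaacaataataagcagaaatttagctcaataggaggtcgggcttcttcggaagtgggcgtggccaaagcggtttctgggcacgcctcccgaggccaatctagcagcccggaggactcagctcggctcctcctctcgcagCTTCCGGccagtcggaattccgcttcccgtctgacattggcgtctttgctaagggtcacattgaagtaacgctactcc
Atp5b: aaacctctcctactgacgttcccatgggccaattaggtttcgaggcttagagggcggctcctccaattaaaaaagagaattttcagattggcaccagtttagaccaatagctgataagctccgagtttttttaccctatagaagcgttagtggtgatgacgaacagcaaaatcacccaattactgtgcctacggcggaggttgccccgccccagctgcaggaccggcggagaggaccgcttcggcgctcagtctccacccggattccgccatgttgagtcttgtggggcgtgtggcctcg
CCGGAAG stood in the promoters of Atp5k, Uqcrh and Cox6b1, GCGCATGCG in that of Atp5k, where its reverse complement overlaps it by all but 1 base, and neither was in that of Atp5b. Of the 37 genes, 15 (40.5%) held CCGGAAG, as did 12.95% of 17492 protein-coding genes, and 6 (16.2%) held GCGCATGCG, as did 2.61% of those genes. The YY1 motif AAGATGGCG stood in 3 (8.1%, against 2.14%) and the ERR motif TCAAGGTCA in 1 (2.7%, against 0.38%), that of Atp5g3. Among the genes with CCGGAAG, 8 of 15 rose and the median log2 change was 0.18, and among those without it 12 of 22 rose and 1 fell, with a median of 0.17. With GCGCATGCG 3 of 6 rose and 1 fell (median 0.28), and without it 17 of 31 rose (median 0.18). A motif here is a run of letters in a window and not a measured binding site.

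In complex III, 5 of the 8 genes (62.5%) rose and none fell by limma (0 lower at an unadjusted p under 0.05). The shares over all genes tested were 24.5% higher and 18.8% lower. The median log2 change of the 8 genes was 0.30. Uqcrh, the hinge protein that contacts cytochrome c1, was at 60.6, 51.9 and 52.9 FPKM in the 3 KO libraries and at 29.5, 28.9 and 28.1 FPKM in the 3 WT libraries. The groups lay far apart, at 55.1 ± 4.74 against 28.8 ± 0.685 FPKM (SD, n = 3), a 1.91-fold difference in means (log2 change 0.91 ± 0.0605 SE, limma adjusted p = 7.32e-05). Uqcrh lies at chr4:116066965-116075071 on the minus strand of GRCm38.

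The other small subunits of complex III split. Uqcr10, a membrane-spanning subunit, was at 158, 152 and 168 FPKM with KO and at 116, 112 and 109 FPKM with WT neutrophils (log2 change 0.50, limma adjusted p = 0.000215). Uqcrb, which lies near a ubiquinone site, was at 78.8, 80.5 and 81.2 FPKM with KO and at 53.7, 57.9 and 60.1 FPKM with WT neutrophils (log2 change 0.48, limma adjusted p = 0.000268). Uqcr11, a very small membrane subunit, was at 39.6, 41.2 and 42.6 FPKM with KO and at 32.4, 29.5 and 27.8 FPKM with WT neutrophils (log2 change 0.45, limma adjusted p = 0.00146). The 3 genes thus rose by 1.38 to 1.42 times with no overlap between groups, where 31.3% of all genes tested also had every KO library above every WT library. Uqcrq, another small subunit, stayed at 60.2 to 63.3 FPKM with KO and 58.3 to 64.1 FPKM with WT neutrophils (log2 change 0.01, 95% interval -0.09 to 0.11), an interval that ends below the rises of the other small subunits.

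The large subunits of complex III differed by far less. Uqcrfs1, the Rieske iron-sulfur protein that takes electrons from ubiquinol, rose from 106 ± 1.80 to 118 ± 2.62 FPKM (SD, n = 3), a 1.11-fold difference (log2 change 0.14 ± 0.0248 SE, limma adjusted p = 0.00468). The core proteins, which form the matrix part of the complex, did not pass the test. Uqcrc1 was at 51.5 ± 1.55 FPKM with KO and 47.8 ± 2.37 FPKM with WT neutrophils (limma adjusted p = 0.0924), and Uqcrc2 at 73.3 ± 2.91 and 70.0 ± 1.38 FPKM (SD, n = 3, limma adjusted p = 0.170). Without KO library 2, Uqcrc2 came past the threshold at a log2 change of 0.10. Cyc1, the cytochrome c1 gene, which the prefixes leave out, was at 67.4 ± 1.32 and 62.1 ± 3.17 FPKM (SD, n = 3, log2 change 0.12, limma adjusted p = 0.0567).

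**Figure D2:**
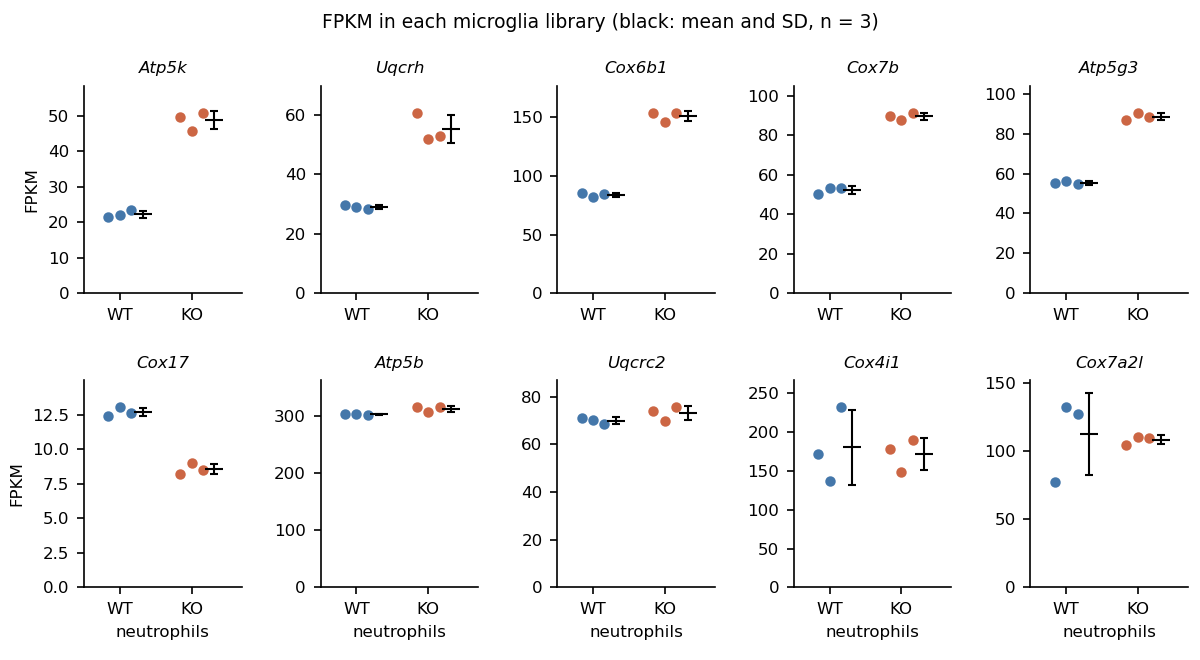
FPKM of 10 genes in each of the 3 WT and 3 KO libraries (points), with the mean and SD in black, each panel starting at 0. The groups are clear of each other for Atp5k, Uqcrh, Cox6b1, Cox7b and Atp5g3 (higher with KO neutrophils) and Cox17 (lower), lie close for Atp5b, and overlap for Uqcrc2, Cox4i1 and Cox7a2l.

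Of the 12 complex IV subunit genes, 8 (66.7%) rose and none fell by limma (0 lower at an unadjusted p under 0.05). Over all genes tested the shares were 24.5% higher and 18.8% lower. A positive log2 change was seen in 10 of the 12 genes, and their median log2 change was 0.28. With Cox7a1, the only one with a mean under 5 FPKM, left out the median was 0.158. Cox6b1, which faces the intermembrane space and joins the monomers of the dimer, was at 154, 146 and 153 FPKM with KO and at 85.3, 82.2 and 84.5 FPKM with WT neutrophils. The means were 151 ± 4.22 and 84.0 ± 1.65 FPKM (SD, n = 3), and the log2 change of 0.84 ± 0.0280 (SE) had the smallest adjusted p of the 47 genes (limma, 4.43e-06). Cox6b1 lies at chr7:30616861-30626151 on the minus strand of GRCm38.

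Cox7b, a membrane-spanning subunit encoded on the X chromosome, was at 89.7, 87.6 and 91.4 FPKM with KO and at 50.02, 53.3 and 53.4 FPKM with WT neutrophils, without overlap (log2 change 0.77 ± 0.0332 SE, limma adjusted p = 1.07e-05). Cox7a2, the widely expressed form of subunit VIIa, was at 105, 102 and 104 FPKM with KO and at 59.3, 63.1 and 69.6 FPKM with WT neutrophils (log2 change 0.69, limma adjusted p = 0.000182). These genes and Cox6b1 rose by 1.62 to 1.80 times. Cox5b, the zinc-binding subunit on the matrix side, rose from 48.4 ± 2.09 to 64.2 ± 3.91 FPKM (SD, n = 3), and Cox6c, a small membrane subunit, from 17.8 ± 2.03 to 24.4 ± 0.663 FPKM (limma adjusted p = 0.00146 and 0.00490). Cox5b has a protein-coding near copy, Gm11273, with 99.2% identity over its coding sequence, which was at 11.1 ± 0.464 FPKM with KO and 8.07 ± 0.447 FPKM with WT neutrophils (SD, n = 3), so reads of this pair may have been split between them.

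Cox8a and Cox7c, small subunits with a single membrane span, rose least among the called genes of complex IV, by 1.11 and 1.12 times. Cox8a was at 158, 172 and 162 FPKM with KO and at 155, 142 and 145 FPKM with WT neutrophils (limma adjusted p = 0.0364), and Cox7c at 71.5, 72.1 and 73.1 FPKM against 59.7, 69.0 and 65.5 FPKM (limma adjusted p = 0.0482). Without any 1 of 4 libraries (Cox8a, log2 change 0.12 to 0.19 over the left-out libraries) or of 5 libraries (Cox7c, 0.10 to 0.20) these calls were lost. A processed pseudogene with the same coding sequence as Cox7c, Gm12338, was listed at 155 ± 9.02 FPKM with KO and 137 ± 4.41 FPKM with WT neutrophils (SD, n = 3), and 43.3% of the fragments of Cox7c and its copies fell in the copies. With the copies added Cox7c kept its log2 change of 0.16 (limma adjusted p = 0.00538).

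Of the other complex IV subunits, 4 gave no call. Cox5a, the binding partner of Cox4i1 on the matrix side, was at 46.7 ± 1.71 FPKM with KO and 44.4 ± 2.00 FPKM with WT neutrophils (limma adjusted p = 0.214). Cox4i1, the largest nuclear subunit, was at 178, 149 and 189 FPKM with KO and at 172, 137 and 232 FPKM with WT neutrophils. Its libraries spread so widely that the 95% interval of its log2 change ran from -0.51 to 0.43, and it overlaps the exons of Emc8 on the opposite strand by 154 bases. Cox6a1 was at 128 ± 7.11 and 124 ± 4.17 FPKM and the heart and muscle form Cox6a2 at 17.9 ± 0.379 and 18.2 ± 0.802 FPKM (SD, n = 3), with limma adjusted p = 0.480 and 0.686.

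Most forms of complex IV subunits that are known from other tissues were at or near 0. Cox4i2, the lung form of subunit IV, was listed at 0 in 5 libraries and at 0.296 FPKM in KO library 1. Cox6b2 and Cox8c, known from testis, Cox7b2 and the muscle form Cox8b were listed at 0 in every library. Cox7a1, the heart and muscle form of subunit VIIa, was the lowest of the 47 genes and stood just above the limit of 1 FPKM. It was at 1.87, 1.83 and 2.27 FPKM with KO and at 0.850, 1.12 and 1.38 FPKM with WT neutrophils (log2 change 0.50, limma adjusted p = 0.0134), which is about 6 fragments in its lowest library and at least 33 in every library for each other gene. Next above the limit was Cox18 at a mean of 2.76 FPKM, and the genes nearest below it were Cox4i2 at a mean of 0.0493 FPKM and the genes listed at 0.

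The 10 Cox genes for assembly and supercomplex factors went in both directions, with 2 of 10 called higher and 1 of 10 lower by limma, beside 24.5% and 18.8% of all genes tested. Their median log2 change was 0.02 (-0.02 on the TPM scale), beside 0.02 over all genes. Cox17, the chaperone that hands copper to the assembly factors Sco1 and Cox11, was at 8.21, 8.96 and 8.50 FPKM with KO and at 12.4, 13.0 and 12.6 FPKM with WT neutrophils. All KO libraries lay below all WT libraries, at 8.56 ± 0.378 against 12.7 ± 0.321 FPKM (SD, n = 3), and the log2 change of -0.52 ± 0.0430 (SE, limma adjusted p = 0.000198) was the only fall of this size among the 47 genes. Cox17 lies at chr16:38346991-38352763 on the plus strand of GRCm38. Gm21987, a protein-coding gene listed at 0 FPKM, shares 257 exonic bases with Cox17 on the same strand and holds its coding sequence at 100% identity.

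Cox19, another small twin-cysteine protein of copper delivery, moved the other way, from 3.28, 3.02 and 3.08 FPKM with WT to 4.60, 4.19 and 4.37 FPKM with KO neutrophils (log2 change 0.38, limma adjusted p = 0.00196). Cox11, which inserts copper into the COX1 protein, was at 7.67 ± 0.581 FPKM with KO and 6.12 ± 1.26 FPKM with WT neutrophils (SD, n = 3, limma adjusted p = 0.128), and it shares 688 exonic bases with Tom1l1 on the opposite strand. Copper delivery genes thus held the called fall, a called rise and an uncalled difference. Cox10 and Cox15, the enzymes that make heme A, had log2 changes of 0.06 and -0.03. Cox10 was at 10.3 ± 0.450 and 9.83 ± 0.251 FPKM and Cox15 at 13.9 ± 0.812 and 14.2 ± 0.343 FPKM (KO and WT, SD, n = 3).

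Of the genes for maturation of the core subunits, Cox20, a chaperone of the COX2 protein, rose from 4.11, 5.83 and 5.10 FPKM with WT to 7.83, 8.77 and 6.80 FPKM with KO neutrophils (log2 change 0.55 ± 0.127 SE, limma adjusted p = 0.0144). Cox20 shares 804 exonic bases with Hnrnpu on the opposite strand, a gene at a mean of 65.9 FPKM, and the sources used here do not state that fragments were counted by strand. Cox18, which inserts the COX2 protein into the membrane, was at 2.70, 1.77 and 2.54 FPKM with KO and at 3.03, 2.93 and 3.55 FPKM with WT neutrophils, without overlap but short of the threshold (log2 change -0.33, limma adjusted p = 0.0766). Cox14, a regulator of COX1 synthesis, was at 14.6 ± 0.271 and 15.9 ± 1.26 FPKM (KO and WT, SD, n = 3, limma adjusted p = 0.140) and passed the threshold at -0.16 after a correction for transcript length and GC content. Cox16, another factor for the COX2 protein, was at 6.33 ± 0.690 and 5.51 ± 1.18 FPKM (limma adjusted p = 0.330), and it passed at 0.33 without WT library 1. Gm20498 shares 2130 exonic bases with Cox16 on the same strand.

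Cox7a2l, a subunit VIIa relative grouped here as a supercomplex factor, was at 105, 111 and 110 FPKM with KO and at 77.8, 133 and 128 FPKM with WT neutrophils. WT library 1 stood apart for this gene, and the log2 change of -0.02 (limma adjusted p = 0.957) became -0.26 without it (limma adjusted p = 0.00416).

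In complex V, 9 of the 17 genes (52.9%) rose and 1 (5.9%) fell by limma, beside 24.5% and 18.8% of all genes tested. The median log2 change of the 17 genes was 0.18. The groups by position within the complex were formed after the values were seen. All 4 genes for the small membrane subunits (e, f, g and the proteolipid Atp5mpl), which sit at the base of the motor and hold dimers of the enzyme together, rose, with a median log2 change of 0.62. In the F1 head, 3 of 5 genes rose (2 of 5 on the TPM scale), with a median of 0.15. None of the 4 genes of the peripheral stalk was called by limma (0 at an unadjusted p under 0.05), but their median of 0.14 was close to that of the head.

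Atp5k, subunit e, had the largest rise of the 47 genes. It was at 49.7, 45.9 and 50.9 FPKM with KO and at 21.5, 22.0 and 23.4 FPKM with WT neutrophils. The KO libraries lay well above the WT libraries at 48.8 ± 2.61 against 22.3 ± 0.973 FPKM (SD, n = 3), a 2.19-fold difference (log2 change 1.10 ± 0.0496 SE, limma adjusted p = 1.33e-05). Atp5k lies at chr5:108433244-108434448 on the minus strand of GRCm38, and it was the only one of the 47 genes whose mean rose by more than 2 times.

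Atp5j2, subunit f, was at 16.2, 17.8 and 15.7 FPKM with KO and at 8.78, 10.04 and 9.98 FPKM with WT neutrophils (log2 change 0.73, limma adjusted p = 0.000328). Atp5l, subunit g, was at 17.0, 15.9 and 16.4 FPKM with KO and at 10.9, 11.5 and 11.1 FPKM with WT neutrophils (log2 change 0.52, limma adjusted p = 0.000126). Atp5mpl, a small proteolipid, was at 46.4, 46.4 and 45.5 FPKM with KO and at 40.0, 30.3 and 31.4 FPKM with WT neutrophils (log2 change 0.44, limma adjusted p = 0.0130). None of the 3 overlapped between groups, where 31.3% of all genes tested also had every KO library above every WT library. Pseudogene copies held 71.3% of the fragments of Atp5l and its copies, most of them in Gm10221, which has the same coding sequence and was at 63.9 ± 3.69 FPKM with KO and 42.2 ± 4.27 FPKM with WT neutrophils (SD, n = 3). With the copies added the log2 change of Atp5l was 0.56 (limma adjusted p = 0.000529). Usmg5, the DAPIT subunit of the same membrane region, which the prefixes leave out, was at 25.5 ± 0.834 and 19.9 ± 1.81 FPKM (KO and WT, SD, n = 3, limma adjusted p = 0.00641).

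The c ring that turns with the proton flow is built from a single mature protein that is encoded by Atp5g1, Atp5g2 and Atp5g3. Atp5g3 rose from 55.1, 56.5 and 54.6 FPKM with WT to 87.1, 90.5 and 88.2 FPKM with KO neutrophils (log2 change 0.67 ± 0.0251 SE, limma adjusted p = 6.34e-06). Atp5g1 rose from 7.96, 9.11 and 7.51 FPKM to 11.5, 10.8 and 11.6 FPKM (log2 change 0.43, limma adjusted p = 0.00381). Its processed pseudogene Gm10039, with 99.8% identity, was at 18.9 ± 0.521 FPKM with KO and 11.4 ± 1.44 FPKM with WT neutrophils (SD, n = 3). Pseudogene copies held 19.6% of the fragments of Atp5g1 and its copies. With the copies added the log2 change of Atp5g1 was 0.47 (limma adjusted p = 0.00229). Neither Atp5g3 nor Atp5g1 overlapped between groups, where 31.3% of all genes tested also had every KO library above every WT library. Atp5g2 was the other of the 2 genes called lower, at 60.0, 58.1 and 57.6 FPKM with KO and 62.6, 61.2 and 61.9 FPKM with WT neutrophils (log2 change -0.08, limma adjusted p = 0.0428). That small fall was lost without any 1 of 5 libraries (log2 change -0.10 to -0.07) and with its pseudogene copies added (-0.07, limma adjusted p = 0.0732).

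Atp5g3 made up 55.9 ± 0.943% of the summed FPKM of the 3 genes with KO neutrophils and 44.2 ± 0.362% with WT neutrophils, and Atp5g2 37.0 ± 0.770% and 49.3 ± 0.920% (SD, n = 3). The order of the pair thus differed: Atp5g2 was above Atp5g3 in the 3 WT libraries and below it in the 3 KO libraries. The ratio of Atp5g2 to Atp5g3 was 0.662 ± 0.0248 with KO and 1.12 ± 0.0296 with WT neutrophils (SD, n = 3, log2 difference -0.76). An exact two-sided permutation test gave p = 0.1, the smallest that 3 against 3 libraries allow, and an adjusted p of 0.15 over the 6 ratios of paralogues, so no ratio could pass. Atp5g2 has processed pseudogenes with the same coding sequence, Gm10175 and Gm10231, and the copies held 58.1% of the fragments. With copies added the shares of Atp5g3 were 35.9 to 37.5% with KO and 25.6 to 26.4% with WT neutrophils, Atp5g2 was above Atp5g3 in all 6 libraries, and the log2 difference of their ratio was -0.74.

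**Figure D3:**
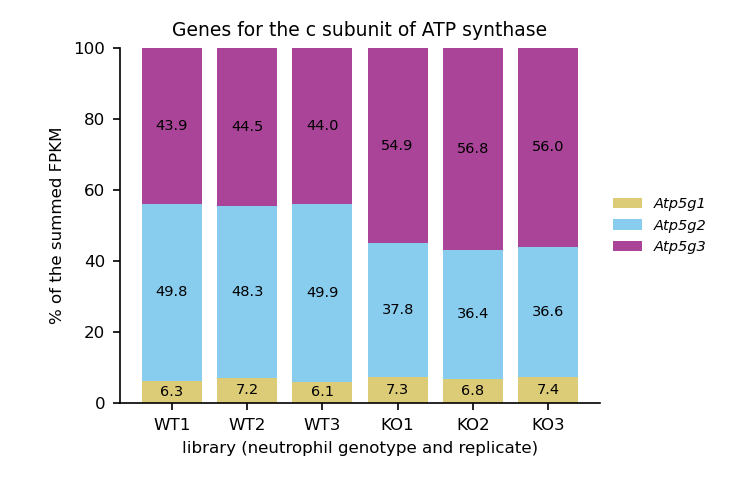
Each bar is 1 library, split into the percentages of the summed FPKM of Atp5g1, Atp5g2 and Atp5g3 (y axis, 0 to 100%). The share of Atp5g3 is 43.9 to 44.5% in the 3 WT libraries and 54.9 to 56.8% in the 3 KO libraries, without pseudogene copies.

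Of the other paralogue pairs, the ratio of Cox7a2 to Cox7a2l was 0.958 ± 0.0388 with KO and 0.595 ± 0.149 with WT neutrophils (SD, n = 3, exact permutation p = 0.1, adjusted p = 0.15), and it was highest among the WT libraries in WT library 1. The ratios of Cox6a1 to Cox6a2 (7.18 ± 0.248 and 6.86 ± 0.497, exact permutation p = 0.5) and of Cox7a2 to Cox7a1 (52.7 ± 5.78 and 58.9 ± 9.85, exact permutation p = 0.4) overlapped between groups. The ratio of Atp5g1 to Atp5g2 was higher with KO neutrophils (0.193 ± 0.00761 and 0.132 ± 0.0145) and that of Atp5g1 to Atp5g3 lower (0.128 ± 0.00708 and 0.148 ± 0.0122), each with exact permutation p = 0.1. The log2 differences of these ratios were 0.550 and -0.206, and 0.583 and -0.162 with pseudogene copies added.

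In the F1 head, Atp5a1 and Atp5b encode the subunits alpha and beta that form the catalytic sites. Atp5b, the highest of the 47 genes at a mean of 308 FPKM, was at 316, 308 and 315 FPKM with KO and at 304, 303 and 302 FPKM with WT neutrophils. The groups did not overlap, but the 1.03-fold difference did not pass the test (log2 change 0.05, 95% interval 0.00 to 0.09, limma adjusted p = 0.0809), and it was 0.00 on the TPM scale. Atp5a1 rose from 210 ± 8.51 to 240 ± 3.32 FPKM (SD, n = 3, log2 change 0.19, limma adjusted p = 0.00421). Atp5e, the small epsilon subunit of the central shaft, rose from 41.4 ± 1.49 to 49.6 ± 3.22 FPKM (log2 change 0.25, limma adjusted p = 0.00893), and Atp5d, its partner delta, from 43.1 ± 1.89 to 47.4 ± 0.889 FPKM (log2 change 0.14, limma adjusted p = 0.0252). These 3 genes did not overlap between groups, where 31.3% of all genes tested also had every KO library above every WT library. The call of Atp5d was lost without any 1 of 5 libraries (log2 change 0.12 to 0.17). Atp5c1, the gamma subunit of the shaft, was at 112 ± 6.57 and 101 ± 6.61 FPKM (KO and WT, SD, n = 3, limma adjusted p = 0.0884).

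The peripheral stalk holds the head still against the turning ring, and its 4 genes had log2 changes between 0.10 and 0.18 with no call. Atp5o (OSCP) was at 61.8, 76.6 and 73.4 FPKM with KO and at 62.8, 62.0 and 61.6 FPKM with WT neutrophils, and KO library 1, which lay at the WT level, decided the call: without it the log2 change was 0.27 (limma adjusted p = 0.00193). Atp5h (subunit d) was at 55.5 ± 2.24 and 51.6 ± 2.95 FPKM, Atp5j (F6) at 20.3 ± 2.54 and 18.02 ± 1.44 FPKM, and Atp5f1 (subunit b) at 50.8 ± 7.10 and 46.3 ± 5.77 FPKM (KO and WT, SD, n = 3). Atp5j passed the threshold at 0.26 without KO library 2, and Atp5h at 0.13 with its pseudogene copies added (limma adjusted p = 0.0353). Atp5f1 passed it at 0.13 under the replicate block (limma adjusted p = 0.0299), where libraries of the same number were paired. Atp5j shares 397 exonic bases with Gabpa and Atp5f1 shares 337 with Wdr77, each on the opposite strand. Atp5s, a coupling factor outside the core enzyme, was at 3.30 ± 0.295 and 3.68 ± 0.0928 FPKM (limma adjusted p = 0.171). A second identifier with the symbol Atp5o was listed at 0.

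The differences also showed in the sums over each complex. Complex III genes summed to 645, 627 and 649 FPKM with KO and to 521, 512 and 508 FPKM with WT neutrophils (log2 difference 0.32). Complex IV subunits summed to 1033, 1013 and 1064 FPKM with KO and to 830.4, 806 and 905 FPKM with WT neutrophils (0.29). Complex V genes summed to 1235, 1243 and 1269 FPKM with KO and to 1085, 1093 and 1072 FPKM with WT neutrophils (0.21). No sum overlapped between groups, and each exact two-sided permutation test gave p = 0.1, which 3 against 3 libraries cannot pass. Together the 47 genes took 0.947 to 0.969% of the summed FPKM of the KO libraries and 0.824 to 0.856% of the WT libraries.

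The 6 mitochondrially encoded subunits of the same complexes rose as well, by 0.15 to 0.84 on the log2 scale. The largest rise was that of mt-Cytb, the cytochrome b of complex III, from 2685, 2682 and 2729 FPKM with WT to 4784, 4771 and 4908 FPKM with KO neutrophils (log2 change 0.84, limma adjusted p = 5.46e-07). mt-Co1, the catalytic subunit of complex IV, rose from 8267 ± 33.1 to 9186 ± 121 FPKM (SD, n = 3, log2 change 0.15, limma adjusted p = 0.000374), and mt-Atp8 of complex V by 0.39 (limma adjusted p = 5.36e-05). The 47 nuclear genes summed to 0.0969, 0.0974 and 0.0981 of the 6 mitochondrial transcripts with KO neutrophils and to 0.103, 0.104 and 0.105 with WT neutrophils (log2 difference -0.10, exact two-sided permutation p = 0.1). The ratio was thus lower in every KO library. Its 2 sides are unlike sets, since the 47 genes include the 10 assembly and supercomplex factors and leave out subunits such as Cyc1. By complex, the difference in summed FPKM (KO minus WT) was 0.84 on the log2 scale for the mitochondrial transcript of complex III and 0.37 for those of complex V, against 0.32 and 0.21 for the nuclear genes. In complex IV the order was the other way, with 0.20 for the mitochondrial transcripts and 0.29 for the nuclear subunits. None of these 6 sums overlapped between the groups (exact two-sided permutation p = 0.1 each, the smallest possible), and the differences between complexes were not tested.

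**Figure D4:**
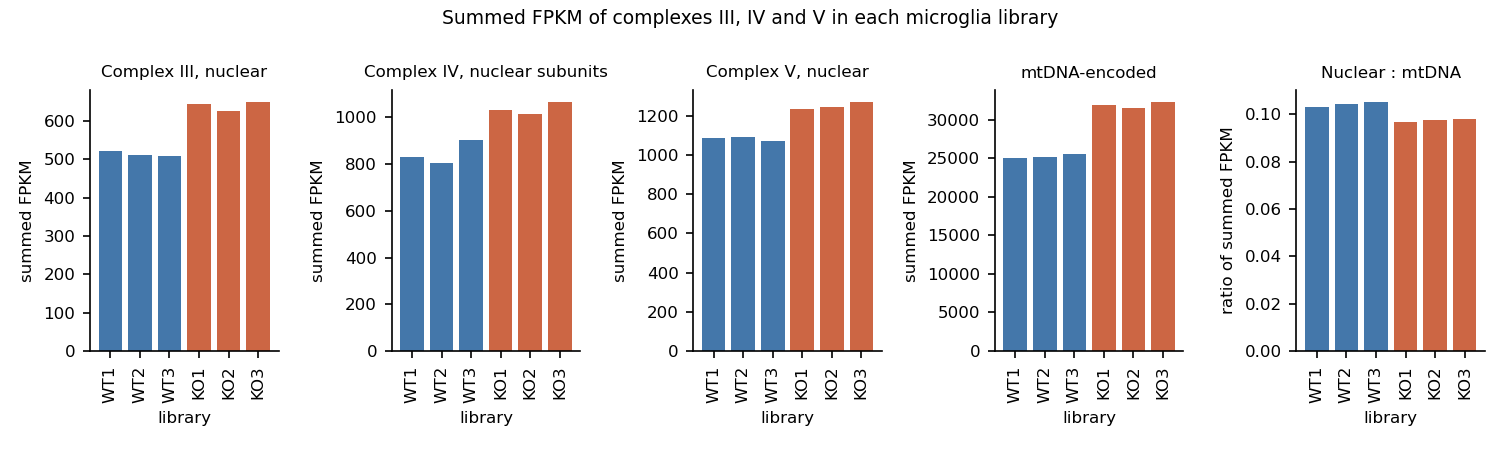
Bars are single libraries, blue with WT and red with KO neutrophils, all on axes that start at 0. The first 3 panels give the summed FPKM of the nuclear genes of complex III, IV (subunits) and V, the fourth that of the 6 mitochondrially encoded subunits, and the last the ratio of all 47 nuclear genes to these 6. The sums are higher in the KO libraries, at 627 to 649 against 508 to 521 FPKM for complex III, and the ratio is lower, at 0.0969 to 0.0981 against 0.103 to 0.105.

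The genes called by limma in the other respiratory complexes, I and II, all rose. For comparison, 24.5% of all genes tested were called higher and 18.8% lower. On the TPM scale 2183 of the 11395 genes tested were called higher and 2659 lower. Of 36 nuclear genes of complex I, the NADH dehydrogenase, 18 rose and none fell (0 lower at an unadjusted p under 0.05, and 10 rose on the TPM scale), with a median log2 change of 0.18, and Ndufb3 rose from 40.0 ± 1.55 to 73.6 ± 6.44 FPKM (SD, n = 3, limma adjusted p = 0.000125). All 4 genes of complex II, succinate dehydrogenase, rose, Sdhc by 0.54 and Sdha by 0.33 on the log2 scale (limma adjusted p = 6.36e-05 and 5.24e-05). The sum of the 47 genes relative to complex I overlapped between groups. The sum was 2.48 ± 0.0297 times that of the complex I genes with KO and 2.42 ± 0.0675 times it with WT neutrophils (SD, n = 3, exact two-sided permutation p = 0.3, 0.1 being the smallest possible). Ndufa4, a subunit of complex IV despite its name, was at 30.8 ± 2.60 and 23.8 ± 2.56 FPKM (KO and WT, SD, n = 3, limma adjusted p = 0.0178).

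Of 27 further assembly factors of complexes III, IV and V, 9 (33.3%) rose and 1 (3.7%) fell by limma, with a median log2 change of 0.13. Among all genes tested, 24.5% were called higher and 18.8% lower. On the TPM scale 6 of these factors were called higher and 1 lower, with a median log2 change of 0.08. Lrpprc, which stabilises mitochondrial mRNAs, rose by 0.29, Uqcc3 of complex III by 0.45 and Atpaf1 of complex V by 0.33 (limma adjusted p = 0.000364, 0.00213 and 0.00999), and Surf1 of complex IV fell by 0.21 on the log2 scale (limma adjusted p = 0.0376). Of 8 carriers and partners, 7 rose and none fell by limma (0 lower at an unadjusted p under 0.05), and on the TPM scale 4 were called higher and 1, Vdac3, lower (log2 change -0.10, limma adjusted p = 0.0376). Atpif1, the inhibitor of ATP synthase, rose by 0.38, the ADP/ATP carrier Slc25a4 by 0.26 and the outer membrane channel Vdac1 by 0.22 (limma adjusted p = 0.000517, 0.000332 and 0.000642), and Cycs, cytochrome c, by 0.10 (limma adjusted p = 0.0443, and 0.218 on the TPM scale).

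Of 11 transcription factors and coactivators of respiratory genes that were tested, 2 (18.2%) rose and none fell by limma (1 lower at an unadjusted p under 0.05), beside 24.5% higher and 18.8% lower among all genes tested. The 2 were Gabpa, the ETS factor GABPA that shares exonic bases with Atp5j, by 0.09 (limma adjusted p = 0.0451) and Tfb2m, a mitochondrial transcription factor, by 0.18 (limma adjusted p = 0.0438), and neither was called on the TPM scale. Nrf1 was at 1.59 ± 0.0132 and 1.79 ± 0.0833 FPKM, Esrra at 7.73 ± 0.598 and 8.30 ± 0.655 FPKM, Yy1 at 37.7 ± 1.25 and 38.1 ± 0.563 FPKM and Tfam at 12.1 ± 0.0634 and 11.9 ± 0.956 FPKM (KO and WT, SD, n = 3). The coactivator Ppargc1b was at 4.01 ± 0.388 and 3.49 ± 0.314 FPKM, and Ppargc1a was listed at 0 in 5 libraries and at 0.00800 FPKM in KO library 2.

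The genes that rose were mostly short. Of 19 genes with a coding length under 300 nt, 15 rose and 1, Cox17, fell, with a median log2 change of 0.44. Of 15 genes from 300 to under 600 nt, 7 rose and 1 fell (median 0.16), and of 13 longer genes 2 rose (median 0.11). Over the 47 genes, Spearman's rho of log2 change with coding length was -0.39, and -0.34 after a correction of the values for transcript length and GC content, with all points from the same 6 libraries. With transcript length rho was -0.47 over the 47 genes and -0.055 over all genes tested. The 914 tested genes with transcripts under 600 nt had a median log2 change of 0.01, and 16.8% were called higher and 10.2% lower. Of the 14 respiratory genes in that class 12 rose, 1 fell and their median was 0.47. The 914 genes are of any gene type and were not matched to the 47 in level. The part of length in these changes was not tested. Within the short genes the spread was wide, from Cox17 and Uqcrq to Atp5k.

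**Figure D5:**
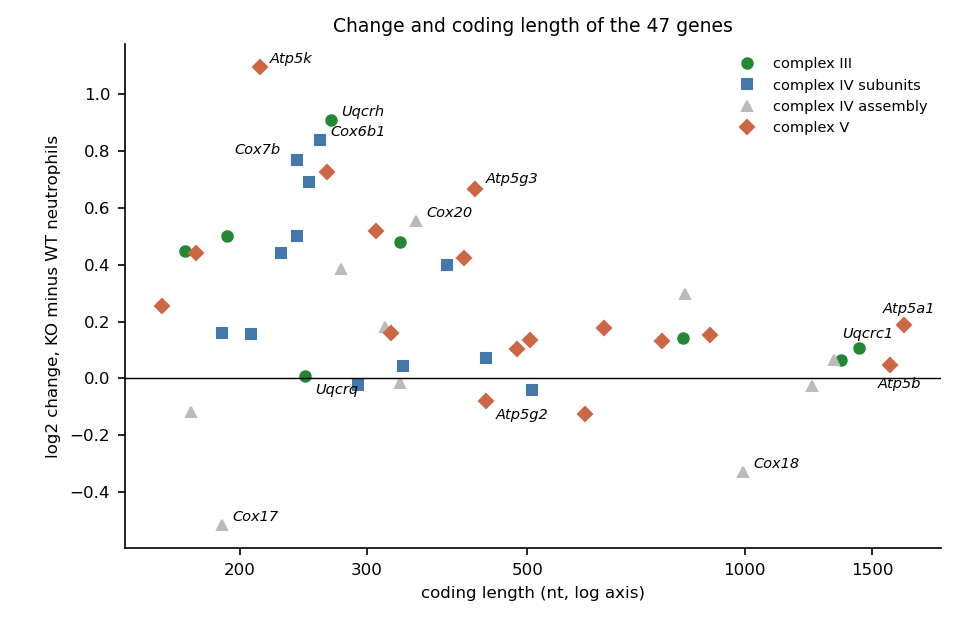
Each of the 47 genes is a point at its coding length (x axis, nt, log axis) and its log2 change, KO minus WT neutrophils (y axis), with symbols by complex. Atp5k, Uqcrh and Cox6b1 stand highest at the short end, Cox17 lowest, and the 13 genes of 600 nt or more have a median of 0.11.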

How the data were processed

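RNA-seq of 6 libraries of sorted microglia, 3 per neutrophil genotype, was analysed from the deposited table of FPKM values for 55335 Ensembl mouse gene identifiers, of which 55154 (99.67%) were matched to symbols and coordinates in GENCODE (GRCm38). FPKM divides the fragments of a gene by its length and by the fragments mapped. The submitters' processing notes name fastp 0.17.1, HISAT2 2.1.0, DESeq2 1.18.1 and R 3.4.3, and the genome build, the counter and its strand setting are not given in the sources used here. The table has 6 columns of values, all used, and holds no counts. Low values came in steps, but only 29.4 to 31.2% lay within 0.05 of a whole number of fragments, where chance gives 10%, so whole fragments were not recovered, no count test was run, and the depth given is an estimate. Precision therefore rests on the spread between the 3 libraries of a group.

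Values were fitted as log2(FPKM + 1) with limma 3.58.1 in R 4.3.3 (lmFit, then eBayes with a mean-variance trend) over the 11395 genes whose mean FPKM reached 1, KO minus WT, without covariates, and p-values were adjusted by Benjamini-Hochberg over all of them. The method was tested on simulated data with independent noise in each library, which does not cover technical replicates or a shared culture. Sums and ratios were compared by exact two-sided permutation tests. Near-identical copies were sought with BLAST+ 2.17.0 (at least 90% identity over at least 50% of the coding sequence). Genes with full statistics were, per class, the 4 with the smallest and the 2 with the largest p, every gene called lower and all paralogue sets, and of other lists at most 3 with the smallest p and set regulators and partners. The genes and lists were chosen with earlier results of these data known. Alternatives covered the filter, pseudocount, scale, normalization, length and GC, weights, a replicate block, single libraries left out, and pseudogene copies.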

Additional observations from a re-analysis of the deposited data

How the results depend on the processing

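Of the 47 genes, 21 of the 24 called higher kept their call under all 19 alternative fits that tested them. The others were Atp5d, Cox7c and Cox8a. The number called higher was 21 to 25 in every alternative. The number called lower was 2, and 1 without the filter on low values, on the TPM scale without mitochondrial genes, without the variance trend, with pseudogene copies added, under the replicate block and for subunits only with Cyc1 added, since Atp5g2 (or, for subunits only, Cox17) dropped out, 1 to 2 with a library left out, and 3 after the length and GC correction, which added Cox14. The median log2 change of the 47 genes was 0.111 on the TPM scale, 0.176 after quantile normalization, 0.121 after cyclic loess, 0.142 after the length and GC correction, 0.176 for subunits only with Cyc1 added, and 0.150 to 0.182 with a library left out. The median of complex III was 0.248 on the TPM scale and after cyclic loess and 0.268 after the length and GC correction. That of complex IV subunits was 0.158 with a mean of at least 5 FPKM, 0.230 on the TPM scale and 0.226 after cyclic loess. That of complex IV assembly genes was -0.023 on the TPM scale, -0.014 after cyclic loess and 0.002 to 0.088 with a library left out. That of complex V was 0.127, 0.124 and 0.144 on the TPM scale, after cyclic loess and after the length and GC correction, and 0.145 to 0.250 with a library left out. The cause of these shifts was not tested. No sum or ratio changed direction in the alternatives run for it. Over all genes tested, same-numbered libraries did not deviate together (correlations -0.075, -0.052 and -0.005). A value over all genes cannot exclude a shared culture, donor or preparation, and the labels do not name one. The replicate block gave 4212 calls over all genes in place of 4930, and 22 of the 47 genes higher. Tests on counts were not run, since no counts could be recovered.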
